A study of Mus musculus with 20 samples.

Results

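The distal colon (DC) of 5 mice on the basal Total Western Diet (TWD) is described here, gene by gene and mouse by mouse. The 5 mice, named RS10_701, RS10_703, RS10_704, RS10_707 and RS10_708, were the animals whose sample description gave 0% resistant potato starch (RPS), out of 20 mice in the series. They were C57BL/6 mice that were bred in-house and fed the TWD, a diet made to resemble what people in the United States eat, for 6 weeks after weaning and for 3 more weeks with no added starch. The other 15 mice, 5 at each of 2, 5 and 10% RPS, ate the same TWD for 6 weeks and then the TWD with RPS for 3 weeks. RPS, named raw potato starch in the labels, is a starch that escapes digestion and feeds the bacteria of the large bowel. Each mouse gave 1 piece of colon taken close to the anal end and 1 stranded library of polyadenylated RNA, so each value below is the RNA of a whole piece of gut wall from 1 animal, and differences between mice hold animal, dissection and library together.

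The colon wall is built in layers. A single sheet of epithelium folds into crypts, in which stem cells at the base give rise to absorptive colonocytes, which take up water and salt, to mucus-secreting goblet cells and to rare enteroendocrine and tuft cells. Below it lie connective tissue with plasma cells that make IgA, macrophages and scattered B cell follicles, and then layers of smooth muscle with the nerve cells of the gut between them. A bulk library adds all of these up, and a smaller number of cells of a type cannot be told apart from less RNA per cell.

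The 5 libraries held between 31.3 and 34.97 megacounts (median 32.5), more than any of the 15 RPS libraries (18.4 to 31.1 megacounts). Of 26619 genes in the table, 24740 had a count in at least 1 of the 5 mice, 20122 in all 5, and 15260 reached a mean of 1 CPM (counts per megacount of library, scaled by TMM). At this depth 3 counts, the most that a count of 0 allows, corresponded to 0.0858 to 0.095 CPM, and such limits cover counting error only. The Y-linked genes Ddx3y, Eif2s3y, Kdm5d and Uty were present in each of the 5 mice (lowest value 16.6 CPM, for Uty), while Xist, the RNA of the inactive X chromosome, did not exceed 0.271 CPM. In 3 of the RPS mice the description and the treatment label gave different RPS levels, but all 3 were RPS mice by both, and the 5 mice at 0% RPS agreed under both labels.

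Mitochondrial transcripts and those of a few secreted and structural epithelial proteins were among the most abundant in the tissue. To compare genes, counts were divided by transcript length and scaled to the same total in every library (TPM). The 4 highest genes were mitochondrially encoded: mt-Co1 at 37267 ± 3064 TPM (mean ± SD, n = 5), mt-Atp6 at 31804 ± 3359 TPM, mt-Co2 at 27121 ± 2654 TPM and mt-Co3 at 22906 ± 1336 TPM, all subunits of the respiratory chain or ATP synthase. The 13 mitochondrially encoded protein genes took 7.48 ± 0.632% of all counts, from 6.62% in mouse RS10_701 to 8.13% in mouse RS10_703. The highest nuclear gene was Lypd8 (15250.5 ± 1472 TPM; chromosome 11, 58269863 to 58281554, GRCm39), which encodes a secreted colonocyte protein that keeps flagellated bacteria away from the epithelium. Lypd8 read 8797 CPM in RS10_701, 9007 in RS10_703, 10617 in RS10_704, 8357 in RS10_707 and 8265 in RS10_708. The mice therefore lay close together for this gene, with an SD of 0.15 on the log2 scale.

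The remaining genes of the first 15 by level were mt-Cytb (11539.6 ± 833 TPM), mt-Nd1 (8502 ± 522 TPM), mt-Nd4 (7292 ± 1030.0 TPM), mt-Atp8 (6083 ± 1430.2 TPM), mt-Nd2 (4863 ± 514 TPM) and mt-Ts1 (5202 ± 631 TPM), together with the translation factor Eef1a1 (6785 ± 618 TPM), the keratin Krt8 (5894 ± 925 TPM), the ribosomal stalk protein gene Rplp1 (5432 ± 659.6 TPM) and the goblet cell lectin Zg16 (5024 ± 834 TPM). The mt-Ts1 value is the gene of a short transfer RNA, and a division by so short a length makes it imprecise. By raw abundance, where long transcripts count for more, the membrane mucin Muc17 (6358 ± 1274 CPM), the lectin Lgals4 (4392 ± 337 CPM) and the antibody transporter Pigr (3528 ± 560.5 CPM) joined them.

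The labelled tissue matched its defining markers. The epithelial list (16 genes, all at 1 CPM or more) summed to 21833 ± 2049 TPM, and its leading members were Krt8, the keratin Krt19 (4553 ± 789 TPM), Lgals4 (3188 ± 186 TPM) and the adhesion molecule Epcam (1937 ± 41.7 TPM). Genes that mark the hind end of the body were strong: Hoxb13 stood at 507 ± 46.2 TPM and Hoxd13 at 166 ± 32.1 TPM, both transcription factors that set posterior identity. Hoxb13 read 558 CPM in RS10_701, 446 in RS10_703, 543 in RS10_704, 480.3 in RS10_707 and 579.9 in RS10_708. These values spread by an SD of 0.16 on the log2 scale, so the pieces carried similar amounts of this marker.

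Absorptive and secretory epithelium followed. The colonocyte transport list (27 genes) summed to 10986 ± 1107 TPM and was led by the carbonic anhydrases Car1 (2386 ± 759 TPM) and Car4 (1625 ± 252 TPM). The chloride exchanger Slc26a3 (830.5 ± 127 TPM) and the water channel Aqp8 (634 ± 151 TPM) also stood high. The goblet cell list (17 genes, 16 of them at 1 CPM or more) summed to 16588 ± 1978 TPM through Zg16, the trefoil factor Tff3 (4551 ± 275 TPM), the protein disulfide isomerase Agr2 (1898 ± 290.4 TPM) and the kallikrein Klk1 (1334 ± 146 TPM). Retnlb, an antimicrobial goblet cell protein, was the member under 1 CPM, with 0.0286 CPM in RS10_701, 0.0317 in RS10_703, 0.187 in RS10_704, 0 in RS10_707 and 0.0603 in RS10_708. Muc2, the main protein of colonic mucus, was far higher, at 2480.1 CPM in RS10_701, 3358 in RS10_703, 2351 in RS10_704, 2268 in RS10_707 and 2038 in RS10_708. The antimicrobial list (13 genes, 8 at 1 CPM or more) reached 21376 ± 1335 TPM because it holds Lypd8, with the acute-phase protein Saa1 (4071 ± 1115 TPM) and Pigr (1997 ± 370.4 TPM) next.

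Rarer epithelial cells were measured at lower levels. The enteroendocrine list summed to 609 ± 78.4 TPM, led by the hormones Pyy (282 ± 38.3 TPM) and Insl5 (139 ± 37.9 TPM), the second of which is made by endocrine cells of the distal colon. The tuft list summed to 61.3 ± 6.08 TPM, led by Ptgs1 (33.6 ± 4.52 TPM), which other cells also express. The stem cell list summed to 160.4 ± 18.8 TPM, with Smoc2 at 35.8 ± 4.0002 TPM and Prom1 at 33.4 ± 10.8 TPM in front. Across the 39 gene lists, the plot of summed list levels gives these values mouse by mouse.

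**Figure D1:**
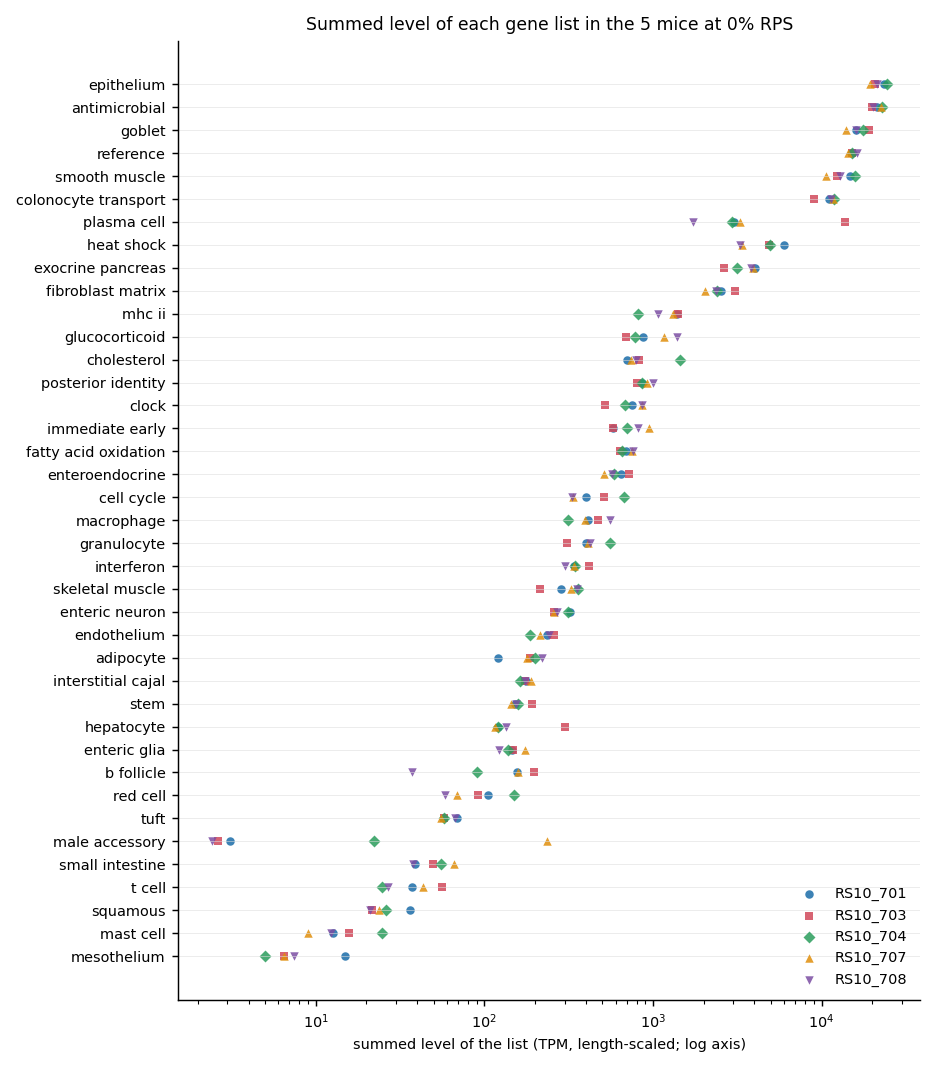
Summed level of each of 39 gene lists (vertical axis) in each of the 5 mice at 0% RPS, as TPM on a log axis, with a colour and symbol per mouse. The points of most lists lie close together, while mouse RS10_707 stands apart for the male accessory gland list, mouse RS10_703 for the plasma cell and hepatocyte lists, mouse RS10_708 for the B cell follicle list and mouse RS10_704 for the cholesterol list.

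The muscle and connective tissue of the wall were also measured, with 1.79% of counts from the smooth muscle list and 0.465% from the fibroblast and matrix list. The smooth muscle list (19 genes) summed to 13244 ± 2069 TPM, with the smooth muscle actin Acta2 (1676 ± 257 TPM), Tpm1 (1547 ± 194 TPM) and Myl9 (1509 ± 247 TPM) in front. Its sum was 14773 in RS10_701, 12283 in RS10_703, 15797 in RS10_704, 10570.5 in RS10_707 and 12797 in RS10_708 (TPM). Mouse RS10_707 was lowest and mouse RS10_704 highest, and of the 19 genes 18 were highest in RS10_704 and 14 lowest in RS10_707. The fibroblast and matrix list summed to 2472 ± 370.0 TPM, led by Sparc (343 ± 52.4 TPM) and Mgp (279 ± 57.01 TPM), and the endothelial list to 228 ± 28.01 TPM, led by Plvap (51.99 ± 9.46 TPM) and Pecam1 (41.2 ± 5.28 TPM).

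Genes of the nerve and pacemaker cells of the muscle layers were measurable, and the pacemaker genes were the steadiest of these. The median SD on the log2 scale was 0.235 over the enteric neuron genes, 0.184 over the glia genes and 0.0522 over the pacemaker genes, beside 0.185 over all genes. The pacemaker median rests on only 3 genes. Within diets in the RPS mice the medians were 0.278 for neuron, 0.262 for glia and 0.122 for pacemaker genes, beside 0.19 over all genes. The pacemaker genes were thus again the steadiest of these, but spread more widely than at 0% RPS. The enteric neuron list summed to 285 ± 31.2 TPM, with the neuropeptide Vip at 65.4 ± 12.7 TPM and Uchl1 at 34.5 ± 4.97 TPM, and the glia list to 146 ± 18.6 TPM, most of it from Erbb3 (119 ± 18.4 TPM), which epithelium also expresses; the glial protein S100b stood at 6.45 ± 0.25 TPM. The pacemaker cells, called interstitial cells of Cajal, were represented by the chloride channel Ano1 (148 ± 7.92 TPM), Kit (22.1 ± 2.07 TPM) and Etv1 (5.53 ± 0.0952 TPM). The spread of Ano1 on the log2 scale was 0.05 and that of Etv1 0.03, both among the steadiest genes in these mice. Kit had a wider relative spread in TPM than either.

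Immune cells differed widely in level. The plasma cell list summed to 4943 ± 4970.3 TPM, an SD as large as the mean, and was led by Igkc, the constant region of the kappa light chain, and Igha, that of IgA. The MHC class II list (9 genes) summed to 1199 ± 254 TPM, led by the invariant chain Cd74 (509 ± 111 TPM) and H2-Aa (281 ± 61.8 TPM). The macrophage list (13 genes) summed to 430.0 ± 91.5 TPM, led by the lysozyme Lyz2 (125 ± 23.1 TPM) and the complement genes C1qa (87.7 ± 23.3 TPM) and C1qc (49.4 ± 15.96 TPM). The B cell follicle list summed to 128 ± 63.2 TPM, with the receptor chains Cd79a (28.2 ± 16.5 TPM) and Cd79b (17.1 ± 9.25 TPM), and the T cell list only to 37.8 ± 12.9 TPM, with Ccl5 (7.15 ± 3.28 TPM) and Cd4 (5.27 ± 1.48 TPM). The granulocyte list reached 420.3 ± 90.3 TPM, but 417 ± 91.3 TPM of it came from Ly6g, a gene of a family of near-identical members whose reads may be shared, while S100a8, a defining neutrophil gene, stood at 0.354 ± 0.192 TPM. Mast cell genes were low, with Cma1 at 9.94 ± 5.82 TPM and 8 of 10 genes under 1 CPM in every mouse. Haemoglobin from blood in the vessels was seen as Hbb-bs at 54.8 ± 22.5 TPM.

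When summed as TPM, the list of common reference genes had the smallest relative spread of the 39 lists. The reference list (17 genes) summed to 15215 ± 659 TPM, a coefficient of variation (CV, the SD as a share of the mean) of 4.33%, led by Eef1a1, the ribosomal protein gene Rplp0 (3307 ± 228 TPM) and the actin Actb (2403 ± 297 TPM). As a share of counts its CV was 5.77%, above those of the antimicrobial list (4.98%) and the pacemaker list (5.23%). The fatty acid oxidation list summed to 700.0 ± 56.5 TPM, led by the lipid droplet protein Plin2 (173 ± 27.8 TPM) and the dehydrogenase Acadm (171 ± 16.01 TPM). Gapdh, a glycolytic enzyme that is usually abundant, read 92.6 CPM in RS10_701, 81.4 in RS10_703, 112 in RS10_704, 68.9 in RS10_707 and 94.5 in RS10_708. The prolyl isomerase Ppia read 16.1 CPM in RS10_701, 18.5 in RS10_703, 17.7 in RS10_704, 16.01 in RS10_707 and 16.2 in RS10_708. Both genes have many near-identical processed copies in the mouse genome, so their counts are uncertain, because how reads matching several genes were handled is not stated in the sources used here.

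Tissues that a piece of colon should lack, together with fat and mesothelium, were sought with their own lists. For skeletal muscle, 6 of 14 genes were under 1 CPM in every mouse and the highest member was Eno3 (270.0 ± 59.9 TPM), a glycolytic enzyme that other cells make, whereas Ckm stood at 13.2 ± 3.32 TPM. For squamous epithelium, such as that of the anal canal, 7 of 16 genes were under 1 CPM in every mouse, Dmkn was highest at 4.50 ± 0.95 TPM and Krt14, which marks basal squamous cells, read 4.49 CPM in RS10_701, 2.15 in RS10_703, 3.52 in RS10_704, 1.30 in RS10_707 and 0.693 in RS10_708. For the exocrine pancreas, 11 of 18 genes were under 1 CPM in every mouse. Its sum of 3525 ± 594 TPM came almost wholly from Sycn (2460.4 ± 510.3 TPM) and Cela1 (1023 ± 132 TPM), and the lipase Pnlip had 17 counts at most in a mouse. Sycn was high in every mouse, at 447 to 758 CPM at 0% RPS and 327 to 982 CPM in the RPS mice. For small intestine, 5 of 10 genes were under 1 CPM in every mouse and Fabp6 was highest at 18.8 ± 7.42 TPM. For fat, Fabp4 stood at 73.2 ± 11.6 TPM and Adipoq at 6.83 ± 2.55 TPM, and for the mesothelium that covers the gut, Nkain4 was highest at 4.31 ± 0.881 TPM. Hepatocyte and male accessory gland genes were high in 1 mouse each and are described with the variable genes.

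Most genes differed little between the 5 mice. The spread of a gene was the SD of its log2 CPM over the 5 mice, in which 1 means that a typical mouse lay a factor of 2 from the mean. The median over 15260 genes was 0.185, with 5% of genes under 0.0722 and 5% over 0.541. The pairs of mice differed by 2-fold or more for 266 genes (1.74%) at the closest, between mice RS10_707 and RS10_708, and for 689 genes (4.52%) at the farthest, between RS10_703 and RS10_708. Against the median of the other 4 mice, mouse RS10_703 had 212 genes 2-fold or more higher and 146 lower, and mouse RS10_708 had 64 higher and 219 lower. The median SD was 0.283 among 4965 genes of 1 to 10 CPM, 0.157 among 8223 genes of 10 to 100 CPM and 0.146 among 1991 genes of 100 to 1000 CPM, and was larger again, at 0.197, among the 81 genes above that.

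**Figure D2:**
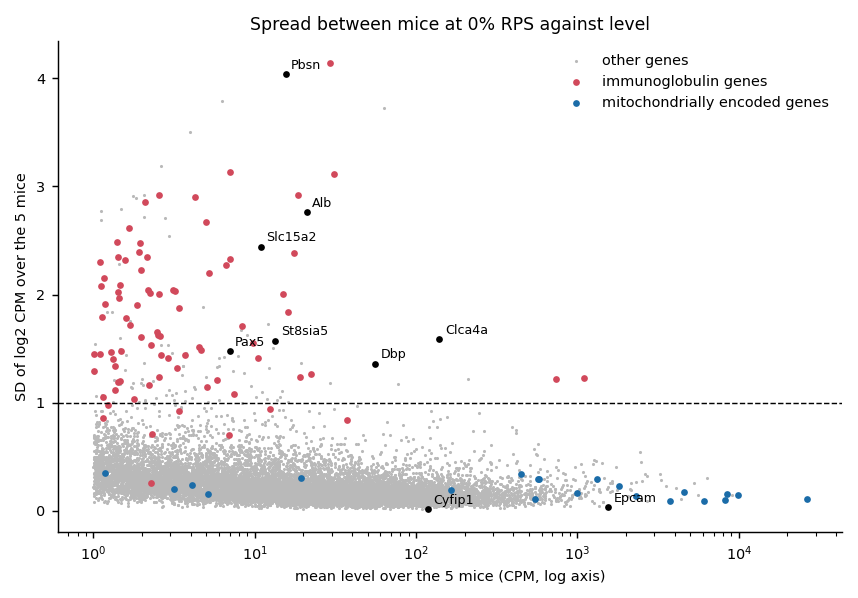
Mean level over the 5 mice (CPM, log axis) against the SD of log2 CPM over the 5 mice, 1 point per gene of 1 CPM or more, with immunoglobulin genes in red and mitochondrially encoded genes in blue. Most points lie below 0.541, and most immunoglobulin genes lie above the dashed line at 1.

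The steadiest genes of at least 50 CPM had diverse roles. Cyfip1, a regulator of actin branching, read 119 CPM in RS10_701, 118 in RS10_703, 118 in RS10_704, 119 in RS10_707 and 116 in RS10_708. Its spread of 0.0134 was the smallest of all, and the 5 values span less than 3 CPM. Nrdc (0.02), Snx6 (0.02), Nek9 (0.02), Slc38a10 (0.02), Leprotl1 (0.02), Cog2 (0.02), Atp9b (0.02), Cant1 (0.03) and Hnrnpu (0.03) followed by SD of log2 CPM. These SDs chose the genes, so their spread was also read in the 15 RPS mice, which did not choose them. There the pooled within-diet SD was 0.108 for Cyfip1, and over these genes it ran from 0.0435 for Nrdc to 0.114 for Leprotl1. The median over all genes was 0.19. Epcam, at 1505 CPM in RS10_701, 1553 in RS10_703, 1601 in RS10_704, 1519 in RS10_707 and 1555 in RS10_708, was steadier (0.03) than the widely used reference genes Actb (0.20) and Gapdh (0.26). The median over the 17 genes of the reference list was 0.144. In the RPS mice the pooled within-diet SD of Epcam was wider, at 0.0968.

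A gene was counted as variable when its SD was at least 1 and its mean at least 1 CPM. By that rule 168 of 15260 genes (1.10%) were variable, 74 of them among the 82 immunoglobulin genes of that level and 94 among all others. None of the 21 mitochondrially encoded genes and no gene of the ribosomal protein family was variable. Each gene has a mouse farthest from the rest: mouse RS10_703 was that mouse, and high, for 71 genes (48 of them immunoglobulin genes), mouse RS10_708 was farthest and low for 43, and mouse RS10_707 was farthest and high for 17. Without mouse RS10_703, 95 genes were variable. The genes nearest the threshold were Blk (1.003) and P2ry10 (1.003) just inside and Lax1 (0.9998) and Hs3st5 (0.99) just outside, by SD of log2 CPM. By lists, 12 of 39 summed levels had a CV of at least 25%, from the male accessory gland list (192%) down to the heat shock list (25.3%).

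**Figure D3:**
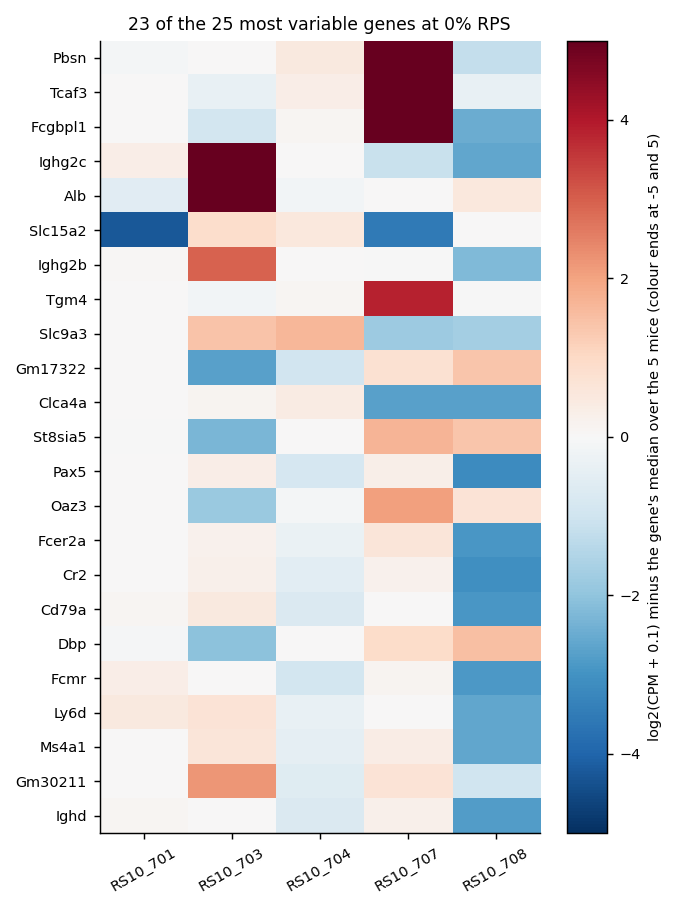
Of the 25 genes with the largest SD among genes of at least 5 CPM, immunoglobulin variable segments left out, the 23 shown here (rows), in the 5 mice at 0% RPS (columns), coloured by log2(CPM + 0.1) minus the gene's median over the 5 mice, with the colour scale ending at -5 and 5. Red cells are high values and blue cells low ones: Pbsn, Tcaf3, Fcgbpl1 and Tgm4 are red in mouse RS10_707, Alb and the IgG genes in mouse RS10_703, and the B cell genes are blue in mouse RS10_708.

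Genes of the male accessory glands were high in mouse RS10_707. Pbsn (probasin, an androgen-dependent prostate secretion; chromosome X, 76881506 to 76897229) read 0.114 CPM in RS10_701, 0.127 in RS10_703, 0.218 in RS10_704, 77.3 in RS10_707 and 0 in RS10_708. Mouse RS10_707 was high and the other 4 mice did not exceed 0.218 CPM, or 7 counts. Tgm4, a transglutaminase of the prostate, read 3.20 CPM in RS10_701, 2.94 in RS10_703, 3.43 in RS10_704, 47.4 in RS10_707 and 3.20 in RS10_708. Fcgbpl1, a mucus-type protein related to Fcgbp, read 2.12 CPM in RS10_701, 1.08 in RS10_703, 2.30 in RS10_704, 309 in RS10_707 and 0.301 in RS10_708, again high in RS10_707 alone. Tcaf3 reached 31.1 CPM in mouse RS10_707 and at most 0.0623 CPM elsewhere. The whole list, 8 genes in the table, summed to 3.12 in RS10_701, 2.64 in RS10_703, 22.2 in RS10_704, 237 in RS10_707 and 2.43 in RS10_708 (TPM). In mouse RS10_704 the sum came from seminal vesicle genes, with 111 counts of Svs5 and 55 of Svs4, of which mouse RS10_707 had 0 and 0. Among the 15 RPS mice Pbsn passed 10 CPM in 1, mouse RS10_724 at 5% RPS (52.0 CPM), which also held the highest Tgm4 (24.4 CPM), and Svs4 and Svs5 passed 1 CPM only in mouse RS10_718 at 5% RPS. The part that carry-over of neighbouring tissue plays in these values was not tested.

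Genes of the liver stood apart in mouse RS10_703. Alb, serum albumin (chromosome 5, 90608647 to 90624696), read 0.915 CPM in RS10_701, 99.2 in RS10_703, 1.28 in RS10_704, 1.42 in RS10_707 and 2.11 in RS10_708. Mouse RS10_703 was high and the other 4 lay between 0.915 and 2.11 CPM. The same mouse was highest for 6 of the 7 hepatocyte list genes of 1 CPM or more, among them Apoa1 (0 CPM in RS10_701, 9.72 in RS10_703, 0.0623 in RS10_704, 0.0296 in RS10_707 and 0.512 in RS10_708), an apolipoprotein, and the fibrinogen chain Fga (0 CPM in RS10_701, 7.19 in RS10_703, 0 in RS10_704, 0.0888 in RS10_707 and 0.0904 in RS10_708). The list summed to 121 in RS10_701, 302 in RS10_703, 121 in RS10_704, 115 in RS10_707 and 134 in RS10_708 (TPM), most of it outside RS10_703 from Ttr (117 ± 12.9 TPM), which endocrine cells also express. Of genes outside the list, chosen after their values were seen, the haem carrier Hpx had 432 counts in RS10_703 and 3 to 12 in the others, and the urinary protein Mup20 had 407 and 0 to 7. In the RPS mice Alb reached 36.2 CPM in mouse RS10_727 at 10% RPS and no other RPS mouse passed 10 CPM. Whether tissue or library carry-over plays a part was not tested.

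Antibody genes were also highest in mouse RS10_703. Igha read 621 CPM in RS10_701, 3311 in RS10_703, 559.6 in RS10_704, 649 in RS10_707 and 353 in RS10_708. The light chain constant gene Igkc read 399.9 CPM in RS10_701, 2179.9 in RS10_703, 434 in RS10_704, 423 in RS10_707 and 230.3 in RS10_708, and Jchain, the joining chain of secreted IgA, read 110.3 CPM in RS10_701, 623 in RS10_703, 108 in RS10_704, 144 in RS10_707 and 67.7 in RS10_708. Mouse RS10_703 was high and mouse RS10_708 lowest in each of these, and immunoglobulin genes made up 0.695% of all counts in RS10_703 against 0.0721% to 0.147% in the other 4. IgG genes spread more than IgA: Ighg2c read 0.887 CPM in RS10_701, 33.5 in RS10_703, 0.685 in RS10_704, 0.266 in RS10_707 and 0.0301 in RS10_708 and Ighg2b 7.50 CPM in RS10_701, 56.6 in RS10_703, 7.26 in RS10_704, 7.25 in RS10_707 and 1.51 in RS10_708, both high in RS10_703. IgA nevertheless made up 87.3% to 94.7% of heavy chain constant counts in every mouse. Of 104 heavy chain variable segments, 92 had a count in mouse RS10_703, and 67 to 79 in the others, and the most counted segment took 21.2% of heavy variable counts in RS10_703 and 6.24% to 13.3% in the others. Segments share sequence, so counts of single segments are uncertain. Among the RPS mice Igha ranged from 646 to 3428 CPM, so mouse RS10_703 lay inside that range, RS10_707 beside its lower end, and RS10_701, RS10_704 and RS10_708 below every RPS mouse. Gm30211, a long non-coding gene that spans Igkc on the same strand, read 5.04 CPM in RS10_701, 23.8 in RS10_703, 3.27 in RS10_704, 8.17 in RS10_707 and 2.44 in RS10_708, and its counts may include those of Igkc.

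B cell genes were low in mouse RS10_708. Pax5, the factor that holds B cell identity, read 8.41 CPM in RS10_701, 10.7 in RS10_703, 4.64 in RS10_704, 10.4 in RS10_707 and 0.874 in RS10_708. Cd79a read 25.003 CPM in RS10_701, 32.2 in RS10_703, 14.1 in RS10_704, 23.1 in RS10_707 and 2.95 in RS10_708. In both, mouse RS10_708 was low and the other 4 mice lay well above it. Of the 13 genes of the B cell follicle list 11 were variable and 12 were lowest in mouse RS10_708, among them the complement receptor Cr2 (7.27 CPM in RS10_701, 8.71 in RS10_703, 5.04 in RS10_704, 8.41 in RS10_707 and 0.784 in RS10_708) and the IgE receptor Fcer2a (7.01 CPM in RS10_701, 8.14 in RS10_703, 5.57 in RS10_704, 10.8 in RS10_707 and 0.844 in RS10_708). Fcmr, Ms4a1, Ly6d and Ighd, also markers of B cells, did likewise, with SDs of 1.34, 1.30, 1.33 and 1.26. Leaving mouse RS10_708 out, the SD of Pax5 was 0.554. The RPS mice held 5.33 to 14.3 CPM of Pax5, so RS10_704 and RS10_708 both lay below every RPS mouse. The list summed to 156 in RS10_701, 196 in RS10_703, 90.7 in RS10_704, 158 in RS10_707 and 37.1 in RS10_708 (TPM), lowest in RS10_708 and next lowest in RS10_704. T cells moved less: of 10 T cell genes of 1 CPM or more only Cd2 was variable (2.17 CPM in RS10_701, 4.50 in RS10_703, 1.87 in RS10_704, 2.75 in RS10_707 and 0.422 in RS10_708). The number of lymphoid follicles in a piece was not given in the sources used here, and its part in these values was not tested.

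Cholesterol synthesis genes were highest in mouse RS10_704. All 17 genes of the list had their highest value in mouse RS10_704, and the sum was 702 in RS10_701, 830.2 in RS10_703, 1454 in RS10_704, 736 in RS10_707 and 794 in RS10_708 (TPM). The synthase Fdps read 11.5 CPM in RS10_701, 15.1 in RS10_703, 36.8 in RS10_704, 8.29 in RS10_707 and 14.2 in RS10_708 and the demethylase Cyp51 37.4 CPM in RS10_701, 66.5 in RS10_703, 119 in RS10_704, 35.3 in RS10_707 and 54.8 in RS10_708. In the 15 RPS mice the sum ranged from 673 to 1789 TPM, with a median of 1152 TPM, and mouse RS10_704 lay inside that range. Cell cycle genes shared this order at the top: all 17 were highest in mouse RS10_704, with sums of 404 in RS10_701, 515 in RS10_703, 673 in RS10_704, 334 in RS10_707 and 332 in RS10_708 (TPM), led by the clamp Pcna (103 ± 20.5 TPM) and Birc5 (66.1 ± 32.02 TPM). The same mouse was highest for 18 of 19 smooth muscle genes and lowest for all 13 macrophage genes. How far these orders are particular to the lists was not tested.

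Clock genes formed a set of their own. The molecular clock turns over once a day: the activators Bmal1, Clock and Npas2 bind E-box sites, letters CACGTG, in the promoters of Per, Cry, Nr1d and Dbp-family genes, and Dbp, Tef and Hlf in turn bind D-box sites, letters TTATGTAA. Dbp itself (chromosome 7, 45354512 to 45359627) read 38.3 CPM in RS10_701, 9.53 in RS10_703, 40.2 in RS10_704, 77.02 in RS10_707 and 114 in RS10_708. Mouse RS10_708 was high, RS10_703 low and the rest between. Ciart, a repressor of the clock, read 7.64 CPM in RS10_701, 3.74 in RS10_703, 9.34 in RS10_704, 10.95 in RS10_707 and 27.7 in RS10_708, and Per3 read 30.9 CPM in RS10_701, 28.1 in RS10_703, 38.5 in RS10_704, 63.9 in RS10_707 and 78.5 in RS10_708, both with RS10_703 lowest and RS10_708 highest. The activators stood in the opposite order: Bmal1 read 37.8 CPM in RS10_701, 53.4 in RS10_703, 36.6 in RS10_704, 35.4 in RS10_707 and 16.5 in RS10_708 and Npas2 38.8 CPM in RS10_701, 45.6 in RS10_703, 37.4 in RS10_704, 33.4 in RS10_707 and 15.2 in RS10_708, with RS10_703 highest and RS10_708 lowest. Nfil3, which competes with Dbp for its sites, read 4.41 CPM in RS10_701, 5.98 in RS10_703, 2.06 in RS10_704, 1.42 in RS10_707 and 0.844 in RS10_708, also highest in RS10_703 and lowest in RS10_708. Of the 18 genes of the list, 10 were highest in mouse RS10_708 and 11 lowest in mouse RS10_703. The time of day at which each mouse was killed was not given in the sources used here.

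The promoters of 3 such genes show the sites at their start. In the window from 250 bases before to 50 bases after the start, on both strands, the E-box letters occurred in 6 of 18 clock promoters (33.3%) and in 8.75% of 17822 protein-coding promoters, and the D-box letters in 2 of 18 (11.1%) and 0.718%. The promoters of Dbp, Nr1d1 and Nr1d2 held neither in this window. The sequences below are the 200 bases before the start of Ciart (chr3:95789557-95789756, minus strand), Per3 (chr4:151129141-151129340, minus strand) and Tef (chr15:81695415-81695614, plus strand), 5′ to 3′ in GRCm39, with E-boxes in capitals in Ciart and Tef and D-boxes in Per3. A match of letters is a description of the sequence and not a measured binding site.
Ciart: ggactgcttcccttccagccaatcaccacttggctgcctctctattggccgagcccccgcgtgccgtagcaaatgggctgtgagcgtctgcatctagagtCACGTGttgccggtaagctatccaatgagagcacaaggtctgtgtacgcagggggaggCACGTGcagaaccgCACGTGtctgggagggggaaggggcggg
Per3: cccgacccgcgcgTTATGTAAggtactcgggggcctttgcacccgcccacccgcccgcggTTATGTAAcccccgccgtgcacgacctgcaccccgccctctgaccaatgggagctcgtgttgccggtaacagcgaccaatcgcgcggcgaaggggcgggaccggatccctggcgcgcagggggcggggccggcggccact
Tef: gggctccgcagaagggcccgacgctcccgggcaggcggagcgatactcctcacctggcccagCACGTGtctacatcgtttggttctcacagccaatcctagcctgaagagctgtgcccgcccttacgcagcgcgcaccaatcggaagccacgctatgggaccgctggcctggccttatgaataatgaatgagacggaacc
Ciart held 3 E-boxes in these bases, Tef 1, and Per3 2 D-boxes, and Tef, a bZIP factor, read 124 CPM in RS10_701, 72.04 in RS10_703, 141 in RS10_704, 164 in RS10_707 and 214 in RS10_708. Its order of mice matched that of Dbp at both ends, with RS10_703 lowest and RS10_708 highest.

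Clca4a, Slc9a3 and Ly6m, the last named after its values were seen, were low in both mouse RS10_707 and mouse RS10_708. The colonocyte transport list as a whole was not, since its sum was 11095 in RS10_701, 9062 in RS10_703, 11790.1 in RS10_704, 11617 in RS10_707 and 11367 in RS10_708 (TPM), lowest in RS10_703. Clca4a, a gene of the calcium-activated chloride channel regulator family (chromosome 3, 144658241 to 144680806), read 188 CPM in RS10_701, 204 in RS10_703, 248 in RS10_704, 28.2 in RS10_707 and 28.9 in RS10_708. The sodium-proton exchanger Slc9a3 read 5.49 CPM in RS10_701, 14.9 in RS10_703, 17.8 in RS10_704, 1.48 in RS10_707 and 1.63 in RS10_708, and Ly6m 119 CPM in RS10_701, 104 in RS10_703, 110.4 in RS10_704, 24.2 in RS10_707 and 26.3 in RS10_708. Clca4a and Slc9a3 were chosen by their spread in these same mice. The share of all genes that are lowest in RS10_707 and RS10_708 was not computed. In all 3 genes RS10_707 and RS10_708 were low and the other 3 mice lay above them without overlap. The chaperone Hspa8 kept this order, at 3651 CPM in RS10_701, 2701 in RS10_703, 2747 in RS10_704, 1525 in RS10_707 and 1602 in RS10_708, while the metallothioneins Mt1 (91.03 CPM in RS10_701, 63.05 in RS10_703, 92.98 in RS10_704, 198 in RS10_707 and 256 in RS10_708) and Mt2 (25.4 CPM in RS10_701, 16.8 in RS10_703, 26.9 in RS10_704, 61.8 in RS10_707 and 85.3 in RS10_708), which bind zinc and respond to glucocorticoids and metals, had it reversed. The heat shock list summed to 5951 in RS10_701, 4875 in RS10_703, 4929.6 in RS10_704, 3376 in RS10_707 and 3287 in RS10_708 (TPM), and the glucocorticoid response list to 877 in RS10_701, 696 in RS10_703, 778 in RS10_704, 1156 in RS10_707 and 1398 in RS10_708 (TPM). The second list holds Mt1 and Mt2, and its CV was 29.6% on this scale and 12.01% as a share of counts. For Slc9a3 the RPS mice ranged from 8.07 to 187 CPM, so RS10_701, RS10_707 and RS10_708 lay below every RPS mouse.

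The rest of the 25 most variable genes had their own orders. Slc15a2, a peptide transporter (chromosome 16, 36570475 to 36605334), read 0.572 CPM in RS10_701, 22.7 in RS10_703, 18.1 in RS10_704, 0.977 in RS10_707 and 12.4 in RS10_708, low in RS10_701 and RS10_707 and high in the other 3 mice. St8sia5, a sialyltransferase, read 8.27 CPM in RS10_701, 1.65 in RS10_703, 8.35 in RS10_704, 27.1 in RS10_707 and 21.9 in RS10_708, and Oaz3, an antizyme, 4.89 CPM in RS10_701, 1.27 in RS10_703, 4.55 in RS10_704, 20.5 in RS10_707 and 7.93 in RS10_708, both lowest in RS10_703 and highest in RS10_707. The non-coding gene Gm17322 read 7.44 CPM in RS10_701, 1.04 in RS10_703, 3.83 in RS10_704, 12.7 in RS10_707 and 19.9 in RS10_708. It overlaps the start of the steroid enzyme gene Cyp11a1 on the same strand, and Cyp11a1 read 2.95 CPM in RS10_701, 0.38 in RS10_703, 1.43 in RS10_704, 9.21 in RS10_707 and 9.98 in RS10_708, so both were lowest in RS10_703 and highest in RS10_708, and their reads may be shared. The immediate early gene Egr1, whose level rises within minutes of handling or stimulation, read 5.64 CPM in RS10_701, 31.5 in RS10_703, 38.3 in RS10_704, 40.9 in RS10_707 and 29.1 in RS10_708, low in RS10_701, and was the only variable gene of its list. Rnase1, the variable gene of the exocrine pancreas list, read 0.629 CPM in RS10_701, 0.412 in RS10_703, 0.343 in RS10_704, 3.29 in RS10_707 and 0.362 in RS10_708, high in RS10_707. The mesothelial gene Upk3b read 4.72 CPM in RS10_701, 0.317 in RS10_703, 0.218 in RS10_704, 0.858 in RS10_707 and 1.21 in RS10_708, high in RS10_701.

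Variable genes of these mice were often variable in other mice of the series. Of the 168 genes, 92 (54.8%) also had an SD of at least 1 within diets in the 15 RPS mice, which did not choose them, beside 127 of 15260 genes (0.832%) overall. The share was 60 of 74 (81.1%) for immunoglobulin genes and 32 of 94 (34.0%) for the others, and without mouse RS10_703 the count was 44 of 95. Genes of the liver and accessory gland differed there, with pooled within-diet SDs of 1.37 for Alb and 2.70 for Pbsn but 0.87 for Hpx and 0.90 for Tgm4. Wide spreads were also seen for Dbp (1.23) and Slc15a2 (1.59). B cell genes varied less: Pax5 had 0.43 and Cd79a 0.44 in the RPS mice, and none of the 13 B cell follicle genes reached 1. 

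**Figure D4:**
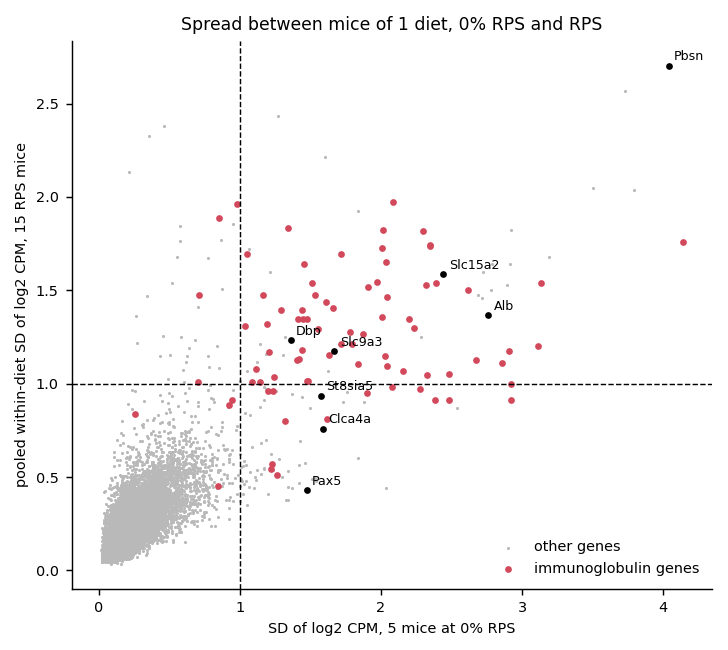
SD of log2 CPM over the 5 mice at 0% RPS (horizontal axis) against the pooled within-diet SD over the 15 RPS mice (vertical axis), 1 point per gene of 1 CPM or more, with immunoglobulin genes in red and the dashed lines at 1. Alb, Pbsn and Dbp lie right of the vertical line and above the horizontal one, and Pax5 lies right of the vertical line and below the horizontal one.

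**Figure D5:**
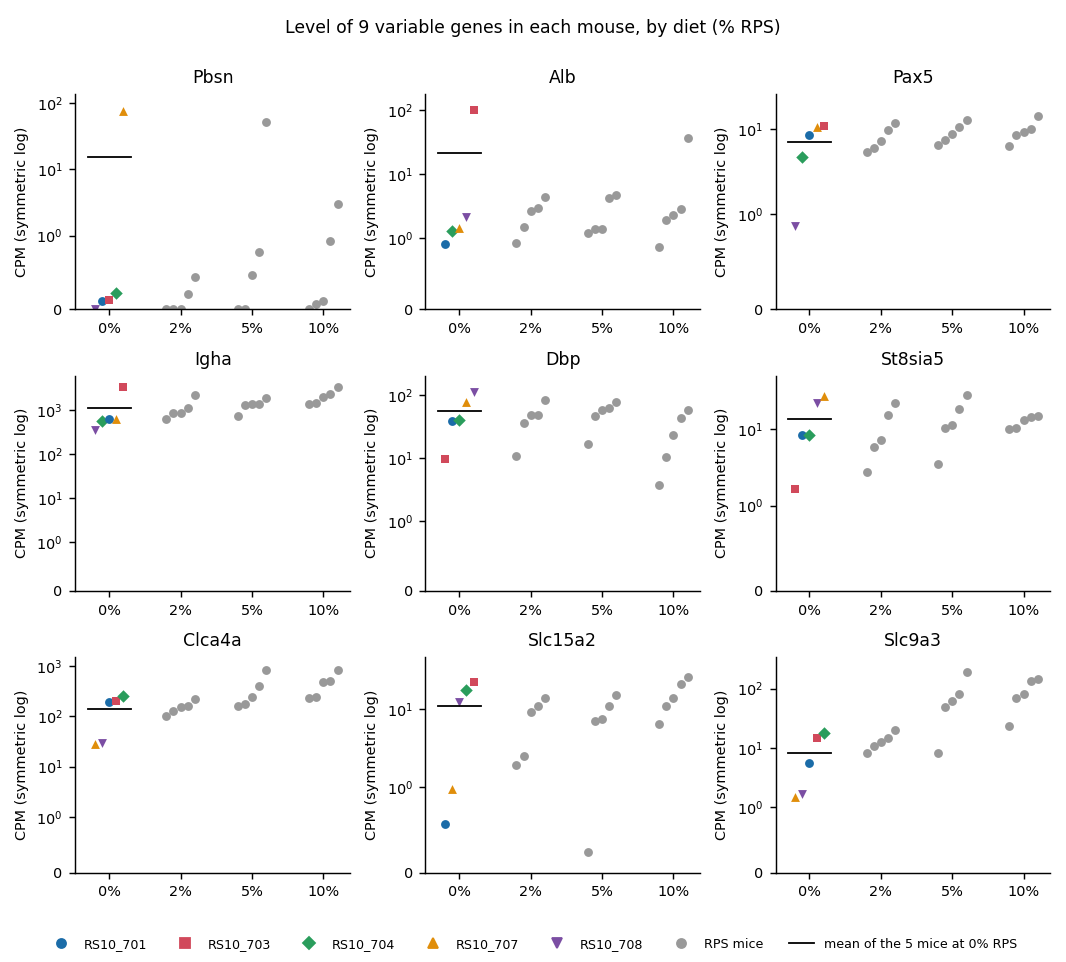
Level in CPM (symmetric log axis) of 9 variable genes in each mouse by diet, with the 5 mice at 0% RPS in colour, the 15 RPS mice in grey and the horizontal line at the mean of the 5 mice at 0% RPS. In the Pbsn and Alb panels 1 mouse at 0% RPS and 1 RPS mouse lie far above all others.

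The comparison with the RPS diets asked which genes set the baseline apart. In edgeR's quasi-likelihood test of 0% RPS against the mean of the 3 RPS diets, with Benjamini-Hochberg adjustment over 17893 genes, 0 genes (0%) passed an adjusted p of 0.05 with a 1.5-fold change. The smallest adjusted p was 0.408, and 1523 genes had an unadjusted p under 0.05, 839 of them higher (4.69%) and 684 lower (3.82%) at 0% RPS. For 2 genes (0.0112%) the 5 mice did not overlap the 15 RPS mice, both higher at 0% RPS: Fam83d, at 17.8 to 24.6 CPM against 13.7 to 17.7 CPM, and the phospholipase Pla2g6, at 14.3 to 17.97 CPM against 10.3 to 13.5 CPM. Both were named after their values were seen, and neither passed in edgeR (adjusted p = 0.408 for Fam83d and 0.441 for Pla2g6). The number of such genes that chance alone would give was not computed. Of the other tools, limma-voom made 0 calls and DESeq2 7, of which Pf4, a chemokine of platelets, was higher and the other 6, among them Slc9a3 and Ighg1, were lower at 0% RPS. A contrast with the mean of the 3 RPS diets dilutes a change that is present at only some RPS levels. The paper instead compared each RPS level with 0% RPS by DESeq2 and reported DC genes that differed, most of them at 10% RPS. The caption of its figure of the RNA data also gives more mice per group than the 5 per diet used here. A test of the spread itself, limma on absolute deviations from the diet median, also made 0 calls. There 212 genes had an unadjusted p under 0.05, with 197 wider and 15 narrower at 0% RPS, but this count was 435 to 817 with 1 mouse at 0% RPS left out and 1177 with squared deviations.

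Some lists leaned one way without any member passing. Over all 17893 genes tested, 4.69% were higher and 3.82% lower at 0% RPS at an unadjusted p under 0.05 by edgeR, the cut used for the counts below. Of the 13 macrophage genes, 10 had an unadjusted p under 0.05 and were higher at 0% RPS, among them Cd68, a lysosomal protein, which read 10.2 CPM in RS10_701, 13.1 in RS10_703, 8.06 in RS10_704, 8.82 in RS10_707 and 17.7 in RS10_708 against 6.26 to 10.3 CPM in the RPS mice, with a log2 difference of 0.56 (SE 0.13, adjusted p = 0.441 by edgeR). Mouse RS10_708 was highest and RS10_704 lowest for this gene, and the groups overlapped. C1qc, a complement chain, had a log2 difference of 0.45 (SE 0.12, adjusted p = 0.441 by edgeR). Without mouse RS10_708 the count was 3 of 13. The median log2 difference was 0.37 over the 13 genes and 0.01 over all genes tested. Of 27 interferon-induced genes 10 had an unadjusted p under 0.05 and were lower at 0% RPS, with a median log2 difference of -0.19 over the list, and the count moved between 4 and 16 when 1 mouse at 0% RPS was left out. Of 17 cell cycle genes 6 were lower at that level, all of them Pcna or Mcm genes of DNA replication, with a range of 4 to 9 when a mouse was left out. Of 12 tested antimicrobial genes 6 were lower, among them Reg3g and Pla2g2a, and 2 were higher, Saa1 and Saa2, and the count of lower genes moved between 3 and 5 when a mouse was left out.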

How the data were processed

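The series measured RNA in the distal colon of 20 mice, 5 per diet, and only the 5 mice at 0% RPS are described in depth. The authors trimmed bases of low quality, removed reads with ambiguous bases, mapped the rest to GRCm39 with CLC Genomics Workbench and deposited raw counts of reads per gene. Which annotation release was used, and what was done with reads matching more than 1 gene, are not given in the sources used here. No mice were pooled, and mice are the replicates.

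Counts were analysed in R 4.3.3 with edgeR 4.0.16, limma 3.58.1 and DESeq2 1.42.0. Symbols, positions and lengths came from the GENCODE annotation of GRCm39, which held 26338 of 26619 identifiers. CPM values were scaled by TMM over the 20 libraries, with a prior count of 2 for log2 CPM. TPM values are counts per length of the canonical transcript, scaled to the same total in every library. Genes for the diet comparison passed filterByExpr at a minimum count of 10, and the edgeR quasi-likelihood fit held the 4 diets and contrasted 0% RPS with the mean of the other 3. The spread test was limma on absolute deviations from the diet median. The self-test on simulated counts recovered known changes of 2-fold and 4-fold in edgeR. The spread test found few of the genes that were simulated with a wider spread. All altered genes were above 5 CPM, and 1 small spread was shared by every gene not simulated as wider. Power for smaller changes, or for genes that vary more, was therefore not measured. Genes were named by rule: the 15 highest by TPM, the 2 to 4 highest of each list, the 25 most variable at 5 CPM or more with antibody variable segments left out, the 10 steadiest at 50 CPM or more, and the most variable members of the clock, immediate early, pancreas, plasma cell and squamous lists. The members, lists and rules were chosen with earlier results of these data known. Alternatives covered scaling, filters, prior count, depth, labels, tests and each mouse left out. Of 537 listed genes, 524 were in the table, and the other 13 are not analysed here. A few genes that these rules name are not reported here.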

Additional observations from a re-analysis of the deposited data

Results flagged for a closer look

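A value stands here when, among the 5 mice at 0% RPS, the gap between its highest or lowest mouse and the next was large against the whole range by Dixon's criterion. Of 78 quantities tested, 15 met it: 6 of 39 list levels, 8 of the 25 most variable genes, 0 of the 10 steadiest and 1 of 4 library measures. Chance flags about 1 in 20 groups, but that share does not apply to the most variable and steadiest genes, which were chosen by the same values, and many of the quantities share a mouse.

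In RS10_707 the level stood apart for the male accessory gland list (236.7 TPM, next 22.24), Pbsn (77.31 CPM, next 0.218), Tcaf3 (31.14 CPM, next 0.06228), Fcgbpl1 (308.6 CPM, next 2.304) and Tgm4 (47.36 CPM, next 3.425). In RS10_703 it stood apart and high for the hepatocyte list (301.9 TPM, next 134.1), the plasma cell list (13770 TPM, next 3273), Alb (99.24 CPM, next 2.11), Ighg2c (33.47 CPM, next 0.8868), Ighg2b (56.65 CPM, next 7.495), Gm30211 (23.84 CPM, next 8.169) and the share of counts from immunoglobulin genes (0.6954%, next 0.1468%). In the same mouse the colonocyte transport list was low (9062 TPM, next 11100). The cholesterol list was high in RS10_704 (1454 TPM, next 830.2) and the mesothelium list in RS10_701 (14.83 TPM, next 7.436).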

How the results depend on the processing

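No paired analysis was possible because mouse numbers are unique to an animal and link no mice across diets. The count of 168 variable genes was 55 at a mean of 5 CPM or more and 100 under filterByExpr over the 5 mice, and stayed between 119 and 176 with another prior count, RLE scaling, library sizes without immunoglobulin genes, an unshrunk edgeR dispersion or thinned libraries. Leaving out 1 mouse at 0% RPS gave 95 to 192, the lowest without RS10_703. Of those genes, the number also variable in RPS mice was 44 to 95 with a mouse left out, again lowest without RS10_703, and 71 to 102 under the other settings. Lists with a CV of at least 25% numbered 10 to 12 throughout. The diet comparison made 0 calls in limma-voom, and 0 in edgeR under every setting run and with each of the 20 mice left out (838 to 2082 genes at an unadjusted p under 0.05 with a mouse left out), and 7 in DESeq2 (Igkv4-57, Rdh9, ENSMUSG00000103428, Pf4, Slc9a3, Ighg1 and Ighv4-1), of which Pf4 was higher at 0% RPS and the others lower. The spread test by limma gave 0 calls (212 unadjusted) and 0 to 3 with a mouse left out, 3 without RS10_701 and 1 without RS10_704. Counts of list genes at an unadjusted p under 0.05, an alternative chosen after seeing the data, ran from 3 to 11 for higher macrophage genes, the lowest without RS10_708, from 4 to 16 for lower interferon genes (16 without RS10_703, 4 or 5 without 1 of the others), from 4 to 9 for lower cell cycle genes, and from 3 to 5 for lower antimicrobial genes (3 without RS10_703 or RS10_708). The causes were not tested. The 0% RPS libraries were deeper than the others, and thinning all libraries to the smallest total left the diet comparison at 0 calls. With 5 mice, an SD is itself imprecise, and 1 animal can set it. Counts of list genes that were highest or lowest in a mouse stand without the share over all genes, which was not computed.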

Other observations

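Hbb-bs, an adult beta-globin of red blood cells, read 18.7 CPM in RS10_701, 15.9 in RS10_703, 27.7 in RS10_704, 11.1 in RS10_707 and 10.1 in RS10_708. It was highest in RS10_704. Capn11, a calpain that was not on any list and was chosen after its values were seen, read 0.172 CPM in RS10_701, 0.222 in RS10_703, 0.187 in RS10_704, 0.681 in RS10_707 and 4.79 in RS10_708, high in RS10_708, and reached 8.197 CPM at most in an RPS mouse. T cell receptor genes took at most 0.00102% of counts in any of the 5 mice, while immunoglobulin variable segments took 0.00925% in RS10_704 to 0.115% in RS10_703.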
